A study of Mus musculus with 8 samples.

Results

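The comparison described here set epididymal fat of DU6 mice against epididymal fat of DBA mice. It used 4 of the 8 arrays of the study, 1 array of each line on each of 2 chips, and comparisons were made within a chip only. Its members were the arrays labelled DU6 and DBA and all probe sets on them other than the manufacturer's controls, 13069 probe sets in all. RNA of 20 males, 42 days old, was pooled for each line, so that 1 pool stood for DU6 and 1 for DBA. DU6 is an outbred mouse line of the Dummerstorf breeding programme, long bred for heavy mice, and DBA is an inbred laboratory strain whose substrain the labels do not give. No treatment, transgene or allele is labelled for either line. The other 4 arrays hold DU6i, an inbred line derived from DU6, and DUKs, the unselected line of the same programme, also 42 days old and pooled from 20 males each; their signals are given beside those of the pair as description. The labels name adiposity, diabetes, insulin and leptin as the study's subjects.

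Epididymal fat is a large visceral depot of the male mouse that lies against the epididymis and testis. Its adipocytes store triglyceride, release fatty acids, and secrete hormones such as leptin and adiponectin, and between them lie endothelial cells, fibroblast-like stromal cells and macrophages. Dissected depots can carry tissue of the neighbouring male tract, and marker genes of that tract were therefore read as well. In a pool of whole tissue, fewer cells of a type and less RNA per cell cannot be told apart.

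Each chip reports 1 signal per probe set, a difference in brightness between matching and mismatched probes that can be below 0. Signals at or under a floor, set per chip at the size that 95% of the negative signals do not exceed (1023 on chip A and 2258 on chip B), were set to the floor before log2 ratios of DU6 over DBA were taken. A probe set was measured if DU6 or DBA exceeded the floor; where only one did, the fold is a bound, written "at least". With 1 pool per line there was no test, and "higher" and "lower" below refer to sizes in these pools. The arrays had 3264 (DU6) and 3222 (DBA) probe sets above the floor on chip A, and 1639 (DU6) and 1811 (DBA) on chip B.

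The pools were set side by side because both had low signals of the pyruvate carboxylase control, so that the values of this control describe the choice of the pair. Pyruvate carboxylase, an enzyme of fatty acid synthesis and gluconeogenesis, is covered by probe sets at its 3′ end, at 2 places in its middle and at its 5′ end; per the labels, cDNA was primed from the poly(A) tail, at the 3′ end. At the 5′ end, chip A gave 162 for DU6 and 251 for DBA, beside 2608 for DU6i and 2252 for DUKs, and chip B gave 809.7 for DU6 and 309 for DBA, beside 3563 for DU6i and 3728 for DUKs. Both lines of the pair were thus under the floor at the 5′ end, where the other lines were above it. One middle probe set (middle A) was likewise under the floor in DU6 and DBA on both chips. The other (middle B) stood on chip A at 15.3% of the 3′ value for DU6 and 19.5% for DBA, beside 54.5% for DU6i and 53.9% for DUKs, and on chip B at 12.7% for DU6 and 14.3% for DBA. The gene's own probe set outside the controls, Pcx, read 6074 in DU6 and 6119.6 in DBA.

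The other controls did not single out the pair on both chips. On chip A, actin's 5′ value was 47.2% of its 3′ value for DU6 and 43.0% for DBA, with DU6i at 40.6% and DUKs at 58.0%. On chip B the actin shares were 36.3% for DU6 and 52.7% for DBA, both under DU6i at 58.1% and DUKs at 60.2%. For Gapdh the 5′ share on chip A was 111% for DU6 and 82.1% for DBA, with DU6i at 97.0% and DUKs at 84.7%. On chip B it was 69.3% for DU6 and 116% for DBA, with DU6i at 111% and DUKs at 71.1%. The order of DU6 and DBA was thus opposite on the chips. The transferrin receptor control was under the floor in both lines at every position. What sets the low 5′ signal of pyruvate carboxylase in both pools was not tested.

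**Figure D1:**
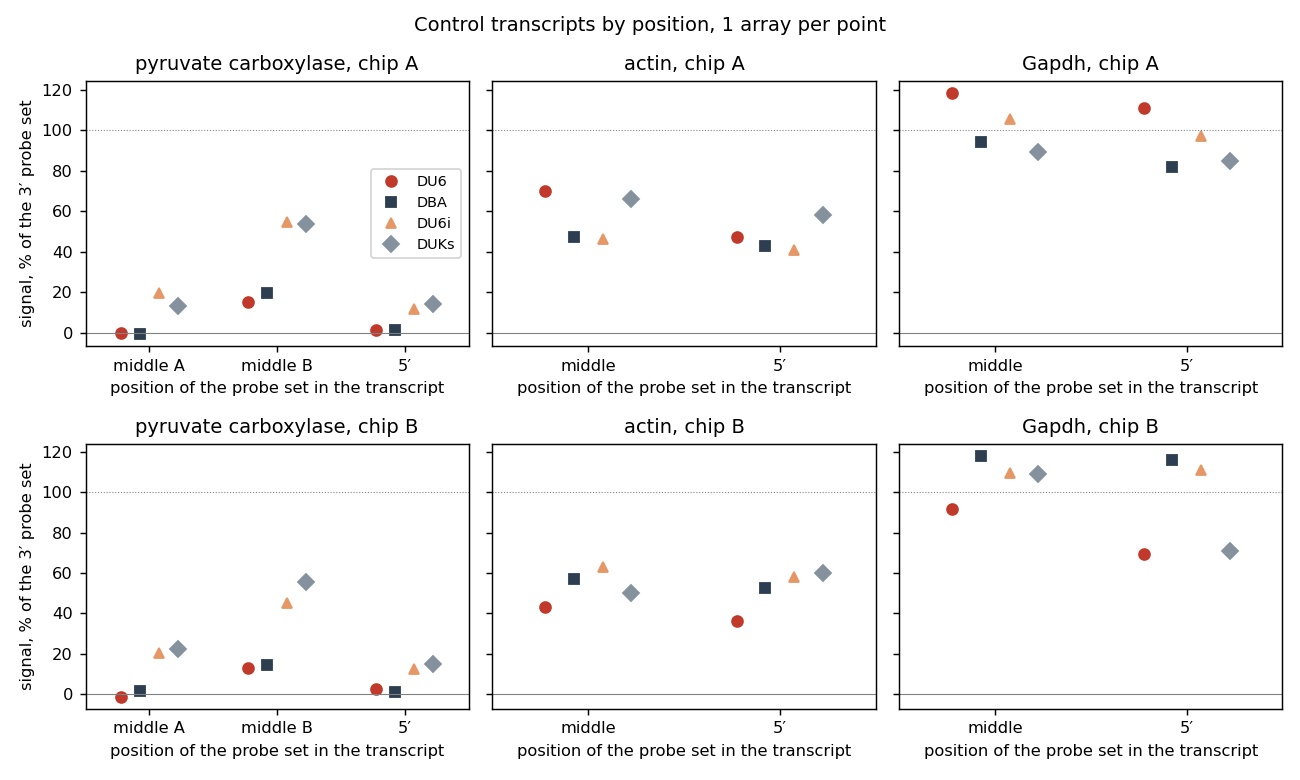
Signal of control probe sets as a percentage of the 3′ probe set of the same transcript (vertical axis) by position in the transcript, for each line (1 array per point) and chip. For pyruvate carboxylase DU6 and DBA lie near 0 at middle A and at the 5′ end and near 12.7% to 19.5% at middle B, under DU6i and DUKs. For actin at the 5′ end on chip B they also lie under the other lines. Elsewhere for actin and Gapdh they do not stand apart.

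The ratios depended on brightness, and in opposite ways on the chips. Among those probe sets that passed the floor in DU6 and DBA with a geometric mean signal over 16384, the median log2 ratio on chip A was -0.33 (175 probe sets). On chip B the median was 0.62 for 121 probe sets over 32768, against -0.15 for the 311 dimmest. The 99th percentile of signals was likewise lower in DU6 on chip A (18810 in DU6, 23450 in DBA) and higher on chip B (49489 in DU6, 33622 in DBA). Of 17 probe sets placed on both chips and above the floor on all 4 arrays, 5 had ratios of the same sign on both. Of these 17, 14 were controls, 3 of them with the same sign. Some control ratios lay near 0, where a sign says little (for 1 of them, 0.0008 on chip A and -0.06 on chip B). Of the other 3 probe sets, 2 had the same sign. These 3, for repeat elements, had log2 ratios of 0.19, 0.37 and -0.52 on chip A. On chip B they had 0.17, 0.15 and 1.04. The ratio after removal of this trend by lowess within each chip is therefore given beside the plain one where it differs most. Among dimmer genes named below, Car1, Ccr2, Ecm1, Tek and Thbs2 passed 2-fold and had lowess folds just under it (1.93 to 1.996), whereas Cebpd, Clec3b, Thy1 and Timp1 passed it after lowess alone (2.01 to 2.04).

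**Figure D2:**
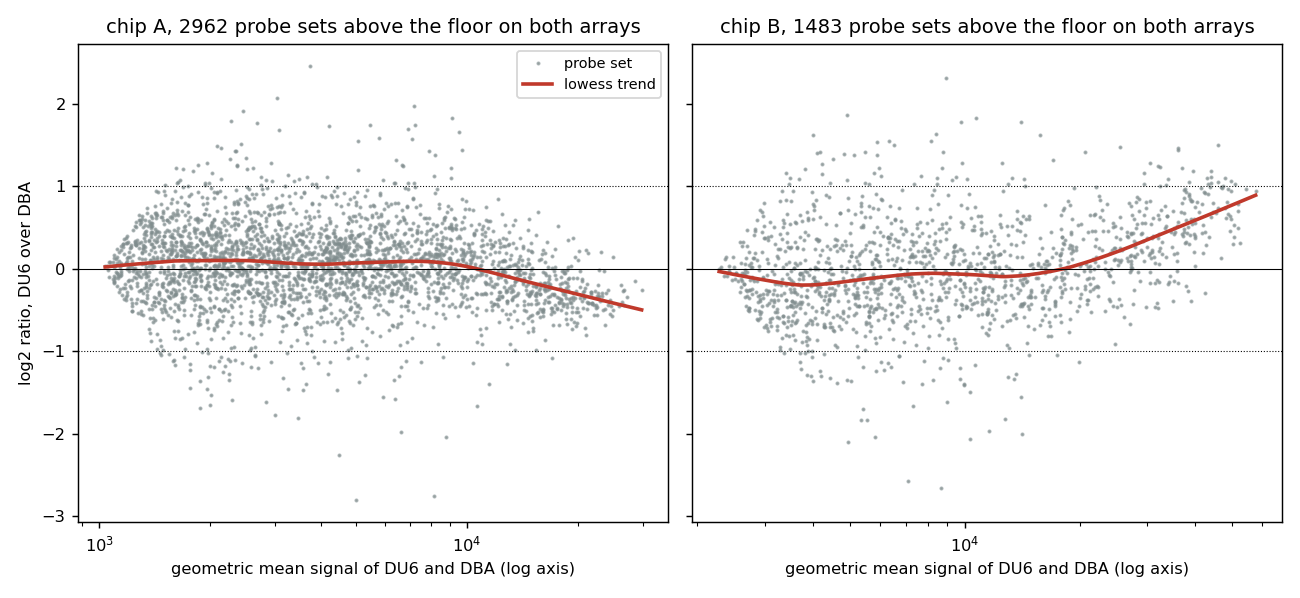
Log2 ratio of DU6 over DBA (vertical axis) against the geometric mean signal of both lines (log axis) for each probe set that passed the floor in DU6 and DBA, by chip, with the lowess trend as a line and 2-fold differences dotted. Bright probe sets drift below 0 on chip A (median -0.33) and above 0 on chip B (median 0.62).

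In all, 5491 probe sets were measured, 4445 of them with DU6 and DBA past the floor. A 2-fold or larger excess in DU6 was found for 208 (3.79%) and a 2-fold or larger deficit for 229 (4.17%), with a median log2 ratio of 0.0019. By gene, where the probe set with the highest mean signal over the 4 lines stands for a gene, 113 of 3511 passed 2-fold on the high side (3.22%) and 143 on the low side (4.07%), with a median of 0.02. These shares are the background for each gene list below. Pairs of probe sets for the same gene gave an SD of a single log2 ratio of 0.37 (393 genes), or 0.32 where both lay on 1 chip and 0.48 across chips. Pairs on 1 chip (274 genes) share their hybridisations, so that only pairs across chips (119 genes) hold differences between hybridisations. No SD here covers animals, so that the spread between pools of a line is unknown. Of 39 genes called at 2-fold that had a second measured probe set, 31 had the same direction there and 13 were 2-fold there as well; across chips 10 of 16 had the same direction. Probe sets with no gene symbol made up 129 of the 437 calls.

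Lep, the gene for leptin, the adipocyte hormone that signals fat stores to the brain, was among the genes furthest above DBA in DU6. Its signal was 12446 in DU6 and 3837 in DBA, 3.24-fold higher, beside 27777 in DU6i and 8696 in DUKs. DBA had the lowest signal of the 4 lines. Mrap, which carries the ACTH receptor to the cell surface in adrenal and fat cells, had 9974 in DU6 and 2986 in DBA (3.34-fold higher). Higher too were Hmox1, the heme-degrading oxygenase (3.78-fold, 4787 in DU6 and 1267 in DBA), Gsto1, a glutathione transferase (3.33-fold), and Lgals3, which encodes galectin-3, a lectin abundant in macrophages (3.09-fold, 27658 in DU6 and 8962 in DBA). Psmb6, a catalytic subunit of the proteasome, had 14219.9 in DU6 and 3625 in DBA (3.92-fold), beside 15926 in DU6i and 13801 in DUKs. DBA alone was low. Ppm1m, a phosphatase, had 6225 in DU6 and 1483 in DBA (4.20-fold), beside 6433 in DU6i and 3321 in DUKs. Wfdc21 (3.35-fold), the translation factor gene Eif5a (3.44-fold), Mpdu1 (3.10-fold) and Gm10486 (4.96-fold) completed the highest genes above the floor in both lines, together with Pdxdc1 (5.52-fold). A second probe set of Pdxdc1 pointed the other way, at least 10.7-fold lower in DU6.

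Genes above the floor in DU6 and not in DBA were led by Ntsr2, a neurotensin receptor gene, with 8457 in DU6 and -116 in DBA, at least 8.27-fold higher. It was under the floor in DU6i and DUKs as well. Cryab, a small heat shock protein, was at least 4.75-fold higher and pointed the same way on the other chip (log2 ratio 1.79 by a bound). Hfe, the hemochromatosis gene, a regulator of iron uptake, had 8183 in DU6 and 1922 in DBA (at least 3.62-fold), beside 8227 in DU6i and 1232 in DUKs, so that the DU6 and DU6i pools shared the high level. Actr3, of the actin-nucleating Arp2/3 complex (at least 4.87-fold), Thumpd1 (at least 3.95-fold) and the transcription factor gene Ets1 (at least 3.79-fold, second probe set 0.58 on the log2 scale) were also in this group. DUKs was above the floor too for Actr3, Thumpd1, Ets1 and Cryab, and DU6i for Actr3, Thumpd1 and Cryab.

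On the low side, Cavin1, which builds the caveolae that stud the adipocyte membrane, had 4327 in DU6 and 17780 in DBA (4.11-fold lower), beside 29379 in DU6i and 18733 in DUKs. DU6 was the low line of the 4. Ifi27, an interferon-induced gene, had the same pattern, with 3127 in DU6, 21161 in DBA, 44633 in DU6i and 33667 in DUKs (6.77-fold lower than DBA). Pfn1, the actin-binding profilin, had 5143 in DU6 and 15754 in DBA (3.06-fold lower; its second probe set gave a log2 ratio of -1.67), beside 4758 in DU6i and 2728 in DUKs. Here DBA was the high line. DBA was also high for Amot, an angiostatin-binding protein of cell junctions (3685 in DU6, 11038 in DBA, 1311 in DU6i, 1616 in DUKs), and for Adam28 (8176 in DU6, 24037 in DBA, 1846 in DU6i, 5106 in DUKs). DU6 was 2.995-fold lower than DBA for Amot and 2.94-fold lower for Adam28. Irf2bp1 (3.22-fold), a transcriptional corepressor, and Slc9a3r1 (3.01-fold), a scaffold under the membrane of epithelial cells, were lower as well. The remaining low genes belonged to the liver-type, germ cell, class II, interferon-induced and seminal vesicle lists described below.

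Mature adipocyte markers showed the chip pattern more than a line pattern. All 20 genes of this list with a named probe set were measured, and the defining markers Adipoq, Fabp4, Lep, Retn, Pparg, Lipe and Slc2a4 were above the floor in both lines, while Cfd has no probe set under its symbol. The list median was 0.11 (11 higher, 9 lower), with -0.38 for the 13 genes on chip A and 0.67 for the 7 on chip B, and 0.07 after lowess. On chip A, Adipoq, the adiponectin gene, had 21044 in DU6 and 28894 in DBA (log2 ratio -0.46, after lowess -0.05), and Fabp4, the fatty acid binding protein of adipocytes, had -0.38 and 0.03. On chip B, Gpd1, the enzyme that makes glycerol phosphate for triglyceride, had 64796 in DU6 and 29949 in DBA (1.11, after lowess 0.45). Likewise Dgat2, the last enzyme of triglyceride synthesis, was 2.05-fold higher but had 0.25 after lowess, and Fasn, the fatty acid synthase, had 0.73 and -0.0037. Scd1, the stearoyl-CoA desaturase, had -0.42 and -0.08. Summed over the list, chip A signals came to 160808 for DU6 and 206869 for DBA, and chip B signals to 274693 for DU6 and 153924 for DBA.

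A few adipocyte genes kept their size after lowess. Besides Lep (1.61), these were Lpl, the lipoprotein lipase that frees fatty acids from circulating lipid, which had 7000.5 in DU6 and 15474 in DBA, 2.21-fold lower (after lowess -1.15), beside 27218 in DU6i and 19095 in DUKs. Retn, which encodes resistin, and Lipe, the hormone-sensitive lipase, were lower but lost part of their size. Their log2 ratios were -0.68 and -0.67, or -0.44 and -0.40 after lowess. Thrsp, a nuclear protein tied to lipogenesis, had 0.65 and 0.66, and the transcription factor Cebpa 0.67 and 0.84. Pparg, the master regulator of fat cell formation, had 3935 in DU6 and 3489 in DBA (0.17), and Slc2a4, the insulin-responsive glucose transporter, 0.07; both differences were under the SD of a single ratio, but a second probe set of Slc2a4 gave 0.61. Among adipogenic transcription factors (median 0.23), Klf2, which restrains adipogenesis, was 2.03-fold lower, Id2 had -0.94, and Cebpd, an early factor of the adipogenic cascade, had 0.83. Adipokines (median 0.43, after lowess 0.07) and fatty acid uptake genes (0.33, after lowess 0.01) leaned high only through chip B. Apoe, the apolipoprotein of fat and macrophages, was 2.44-fold higher by its chip B probe set (log2 ratio 0.92 after lowess), while the chip A one gave a log2 ratio of -0.66.

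In the growth hormone and IGF list, 15 genes had a median of 0.01. Ghr, the growth hormone receptor, had 1534 in DU6 and 926 in DBA, a log2 ratio of 0.58 by a bound, beside 7106 in DU6i and 3709.7 in DUKs. Igf1 had 3960.2 in DU6 and 3669 in DBA (0.11). Igf2, the imprinted growth factor, was 2.19-fold lower (1986 in DU6, 4345 in DBA), and H19, its imprinted neighbour, had -0.75 by its brighter probe set and -0.91 by the other. Cish, a feedback inhibitor of the growth hormone pathway, was at least 1.92-fold higher. In the insulin and glucose transport list (median 0.12), 1 of 10 genes reached 2-fold, Slc2a3, a glucose transporter also made by germ cells, at least 3.07-fold lower. The insulin pathway genes Insr and Irs1 and the uncoupling protein gene Ucp1 were under the floor in both lines.

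Of all 44 lists, that of secreted liver-type proteins had the most members at least 2-fold lower in DU6. Of 28 measured genes of the acute-phase and liver-type list, 20 were lower, 12 of them by at least 2-fold, and 8 higher, 1 of them by at least 2-fold; the median was -0.69, and -0.79 after lowess. Fgg, a chain of fibrinogen, had 883 in DU6 and 10102 in DBA, at least 9.88-fold lower, beside 3591 in DU6i and 1427 in DUKs. Hpx, the heme carrier hemopexin, had 884 in DU6 and 9299 in DBA (at least 9.09-fold). Ahsg, which encodes fetuin-A, had 1880 in DU6 and 13196 in DBA, 7.02-fold lower, with 16797 in DU6i and 5042 in DUKs. DU6 was thus the lowest of the 4 lines for these genes, DBA the highest for Fgg and Hpx, and DU6i for Ahsg.

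Further liver-type genes followed the same direction. Pzp, a protease inhibitor of plasma, was at least 6.01-fold lower, Apoa2, an apolipoprotein of high-density lipoprotein, 4.03-fold (its second probe set gave a log2 ratio of -1.96), and Ambp, the precursor of alpha-1-microglobulin, at least 3.83-fold (-2.203 by its second). The serum amyloid P gene Apcs had 256 in DU6 and 7676 in DBA while DU6i and DUKs did not pass the floor. Itih1 (at least 3.33-fold), Saa2 (at least 2.93-fold), Apoh (at least 2.73-fold) and the major urinary protein genes Mup5 (2.28-fold) and Mup3 (2.12-fold) were also lower; the Mup genes are near copies of each other, so that their probe sets may not tell them apart. The complement list shared this side through Vtn, the vitronectin gene, at least 5.97-fold lower (965 in DU6, 6108 in DBA). Alb, the albumin gene, was bright in both lines, with 21333 in DU6 and 34102 in DBA (log2 ratio -0.68, after lowess -0.94).

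Not all members of the list were on that side. Saa3, the serum amyloid gene of fat and macrophages, had 6684 in DU6 and 2521 in DBA, 2.65-fold higher (its second probe set gave a log2 ratio of 0.55). Orm1 (0.62), Serpina3n (0.59) and Hp, the haptoglobin gene (0.95, after lowess 0.18), were also higher. Among the 16 list genes above the floor in both lines the median was -0.01; 12 of the 20 lower genes were under the floor in DU6. The median of adipocyte markers for these pools was 0.11. From which cells in the pools these transcripts came was not tested.

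**Figure D3:**
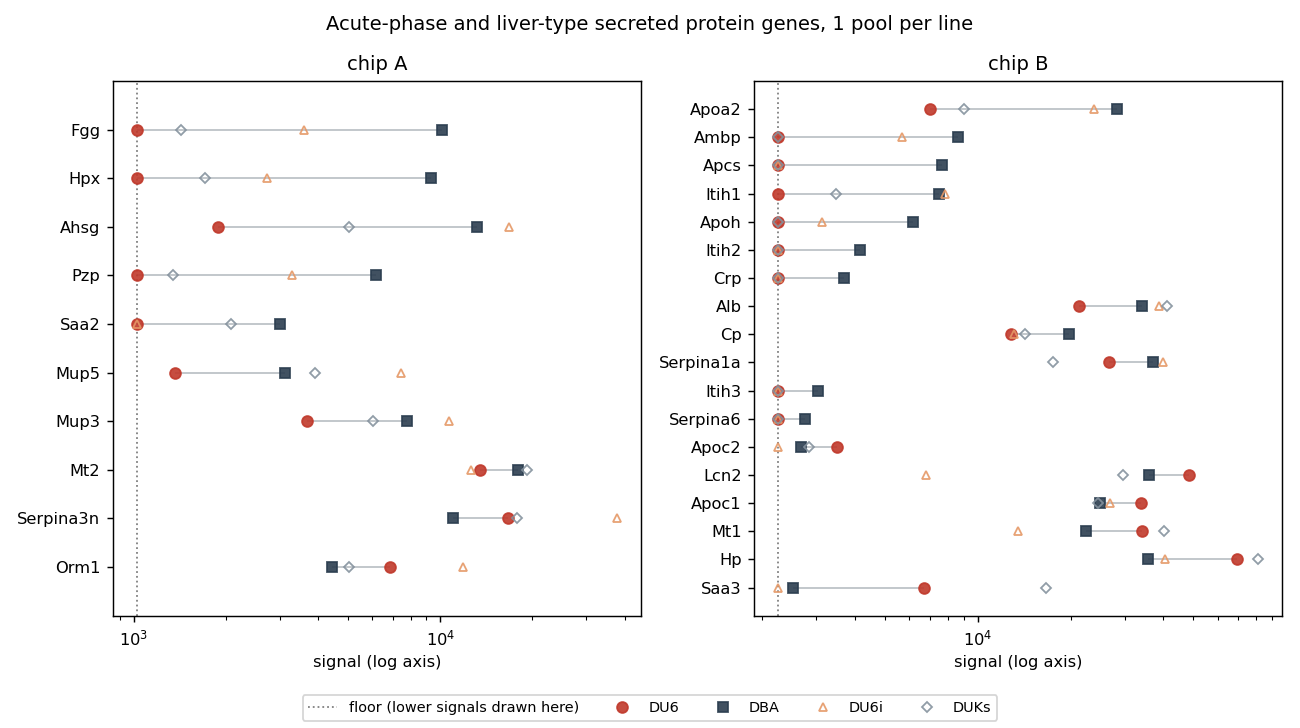
Signals (log axis) of the measured genes of the acute-phase and liver-type list in DU6, DBA, DU6i and DUKs, 1 pool per line, by chip, with a bar between DU6 and DBA. DU6 lies left of DBA for 20 of 28 genes, most widely for Fgg (at least 9.88-fold) and Hpx, and right of it for 8, among them Saa3, Hp and Orm1.

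Of all 44 lists, that of macrophage and myeloid markers had the most members at least 2-fold higher in DU6. Of 33 measured genes 27 were higher, 10 of them by at least 2-fold, and 6 were lower, 1 of them by at least 2-fold, with a median of 0.59. Ctsk, Ccl7, Msr1, Ccl2, Spi1 and Ccl6 were above the floor in DU6 only and Ccl4 in DBA only. The direction of these genes was thus fixed by the rule for being measured. The list median was 0.58 on chip A, 0.66 on chip B and 0.65 after lowess, so that this group did not follow the chip pattern of bright genes. Summed over the list, chip A signals came to 152604 for DU6 and 127150 for DBA, and chip B signals to 242074 for DU6 and 130008 for DBA. Cd68, a lysosomal membrane protein of macrophages, had 3861 in DU6 and 1436 in DBA (2.69-fold higher), beside 3139.9 in DU6i and 2442 in DUKs. Csf1r, the receptor for the macrophage growth factor, had 13955 in DU6 and 6452 in DBA (2.16-fold). Spi1, the transcription factor PU.1 of the myeloid lineage, was at least 2.54-fold higher. DU6 had the highest signal of the 4 lines for each of these genes.

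Other members of the list described the same side. The chemokine genes Ccl9 (10008 in DU6, 3327 in DBA) and Ccl6 (3016 in DU6, 208 in DBA) were higher, 3.01-fold for Ccl9 and at least 2.95-fold for Ccl6. The lysosomal proteases Ctss (2.40-fold) and Ctsd (2.32-fold, log2 ratio 0.70 after lowess) and the complement chain C1qc (2.502-fold) were higher too, with C1qb at 0.78 and C1qa at 0.57. Adgre1, which encodes a surface antigen of mature macrophages, had 4322 in DU6 and 2736 in DBA (0.66), and Mrc1, the mannose receptor, 0.77. Exceptions were Lyz2, a lysozyme (-0.44, after lowess -0.07), Ctsh (-0.55), and Cd9, a tetraspanin found on many cell types, 2.16-fold lower. Ccl2, the chemokine that draws monocytes, had 1858 in DU6 and 85 in DBA (at least 1.82-fold), and its receptor gene Ccr2 was at least 2.11-fold higher. In the complement list, with a median of 0.03 over 17 genes, Cfp, the properdin gene of myeloid cells, was 2.33-fold higher.

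**Figure D4:**
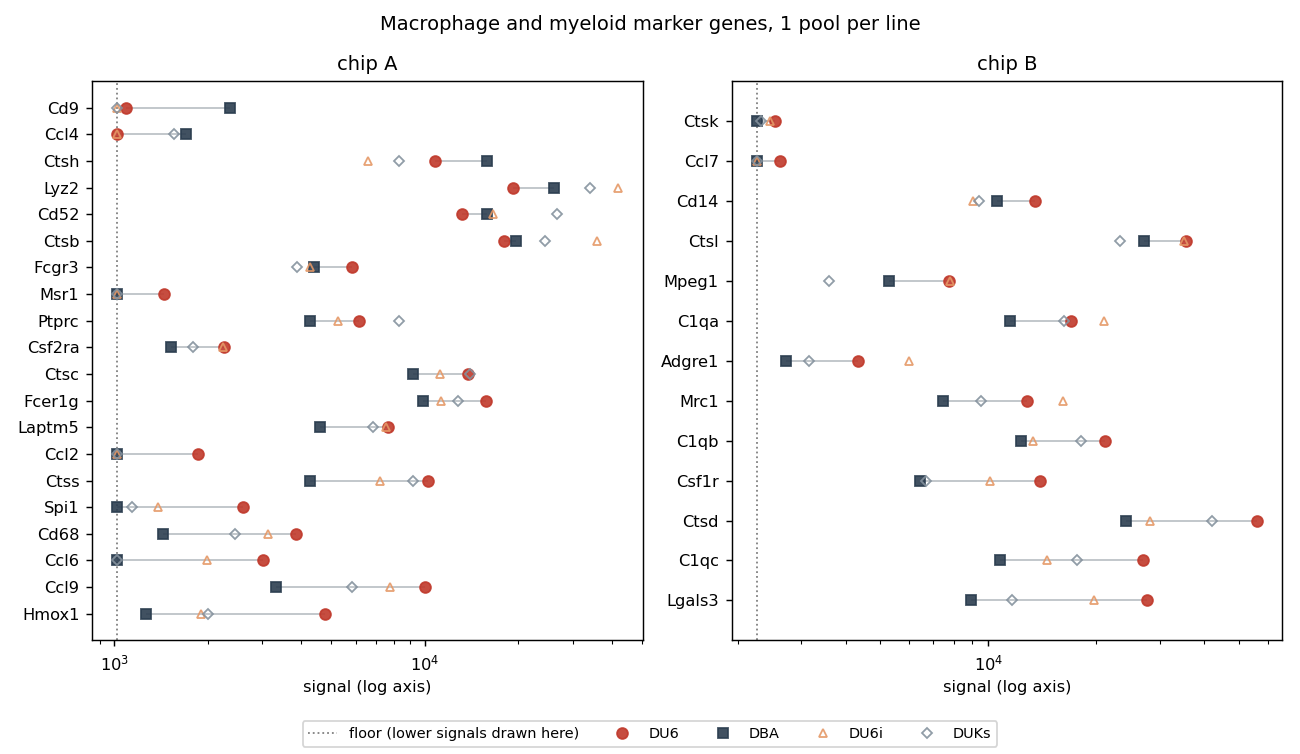
Signals (log axis) of the measured macrophage and myeloid markers in DU6, DBA, DU6i and DUKs, 1 pool per line, by chip, with a bar between DU6 and DBA. DU6 lies right of DBA for 27 of 33 genes, with the largest distances for Hmox1 (3.78-fold) on chip A and Lgals3 (3.09-fold) on chip B. For Ctsk, Ccl7, Msr1, Ccl2, Spi1 and Ccl6 the DBA signal is drawn at the floor.

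Mast cell, granulocyte and red cell markers leaned the same way (median 0.58, 11 of 14 higher). The lower genes Kit, Prtn3 and Mcpt2 were above the floor in DBA only, and Ank1, S100a8 and Slc4a1 in DU6 only. For these genes the direction was fixed by the rule for being measured. The 2-fold members were both red cell genes, Hba-a1, a haemoglobin chain with a near-identical copy (2.71-fold, log2 ratio 0.93 after lowess), and Car1, a carbonic anhydrase (2.12-fold). S100a8, a calcium-binding protein of neutrophils, was above the floor in DU6 and under it in DBA by both probe sets, at least 3.95-fold by the chip A one (4042 in DU6, 522 in DBA). Lymphocyte markers were mostly dim, with 6 of 33 measured. Ighm, the heavy chain of IgM, had 47733 in DU6 and 23597 in DBA (2.02-fold, log2 ratio 0.57 after lowess) and pointed the same way on chip A (log2 ratio 1.38). Among cytokines, chemokines and their receptors (median 0.22, 14 of 21 higher), the 2-fold members were all higher and were Ccl9, Ccl6, Ccr2 and Ifngr1, the interferon gamma receptor gene (2.16-fold).

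Class II genes of the major histocompatibility complex, which present peptides on macrophages, dendritic cells and B cells, split by locus (8 measured, median 0.27). At 2-fold, H2-Ea and H2-Eb1 were lower and the protease gene Ctss, given above, higher. H2-Ea, the alpha chain of the E molecule, which some mouse haplotypes do not express, had 195 in DU6 and 8566 in DBA, beside 218 in DU6i and 406 in DUKs. DBA was the only line above the floor, and DU6 was at least 8.38-fold lower, or at least 3.38-fold by the chip B probe set. H2-Eb1, the beta chain of the same molecule, had 884 in DU6 and 12279 in DBA (at least 5.44-fold), beside 1089.7 in DU6i and 8626 in DUKs, whereas a second probe set gave 3544 in DU6 and 5084 in DBA, 1.43-fold. H2-Aa, the alpha chain of the A molecule, had 17964 in DU6 and 17427 in DBA, a log2 ratio of 0.04. H2-Ab1, the beta chain of that molecule, had 0.18, and Cd74, the chaperone shared by class II molecules, 0.38 (after lowess -0.40). By these probe sets the E chains were low in DU6 and the A chains differed by less than the SD of a single ratio, but other probe sets of H2-Eb1 and H2-Aa gave other values.

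The other probe sets of H2-Aa did not give 1 value. Their log2 ratios were -0.02, -0.50, 1.83 and -0.77. The one at 1.83 had signals of 17196 in DU6, 4833 in DBA, 22619 in DU6i and 6005 in DUKs. Most of these probe sets bear the manufacturer's mark for matching a family of sequences, and class II genes differ in sequence between haplotypes. Whether a ratio here is one of level or of match to the probes was not tested.

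To show what the 2 class II loci share upstream, their promoters are given as in RefSeq (assembly GRCm38.p6, 250 bases before to 50 after the start of the gene, in the gene's direction). The capitals mark CTGATTGG, the Y box of class II promoters, searched on both strands, which 4.10% of all 32851 promoters of this length hold.
H2-Eb1, chr17:34305617-34305916, plus strand: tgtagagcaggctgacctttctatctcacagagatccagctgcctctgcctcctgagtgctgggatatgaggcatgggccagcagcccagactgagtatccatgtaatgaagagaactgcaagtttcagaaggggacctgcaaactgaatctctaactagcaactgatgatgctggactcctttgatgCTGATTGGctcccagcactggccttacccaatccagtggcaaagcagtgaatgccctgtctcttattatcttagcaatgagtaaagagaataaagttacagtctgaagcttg
H2-Aa, chr17:34287774-34288073, minus strand: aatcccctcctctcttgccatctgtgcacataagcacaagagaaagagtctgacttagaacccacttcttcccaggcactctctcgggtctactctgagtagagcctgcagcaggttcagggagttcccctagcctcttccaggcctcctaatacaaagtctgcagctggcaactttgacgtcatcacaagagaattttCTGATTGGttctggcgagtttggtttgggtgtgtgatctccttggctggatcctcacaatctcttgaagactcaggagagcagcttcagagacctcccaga
The box began 62 bases before the start in H2-Eb1, whose signal was under the floor in DU6 by 1 probe set, and 51 bases before it in H2-Aa, whose brightest probe set over the 4 lines had 17964 in DU6 and 17427 in DBA. The sequences are those of the reference assembly, not of DU6 or DBA.

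Class I and antigen processing genes had a median of -0.37 (after lowess -0.23, 10 of 15 lower), but the chips pointed opposite ways. The median was -0.43 for 10 genes on chip A and 0.42 for 5 on chip B. H2-D1, a class I gene, had a log2 ratio of 0.42 on chip B, and -0.37 and -0.98 by chip A probe sets. Psmb9, a subunit of the immunoproteasome, was 2.34-fold lower (4019 in DU6, 9416 in DBA) and had -1.05 on the other chip, and Tap1, the peptide transporter, was at least 2.14-fold lower. Psmb8, its neighbour in the complex, had -0.78 and -0.90. Cd1d1, which presents lipids to natural killer T cells, was 2.30-fold higher. Among 19 interferon-induced genes (median -0.20), the 2-fold members were all lower: Ifi27, given above, Iigp1 (2056 in DU6, 9845 in DBA, 4.79-fold) and Igtp (at least 2.38-fold). The products of Iigp1 and Igtp are GTPases induced by interferon gamma. Irf1, a factor of the same response, had -0.70, whereas Irf7, a factor of the type I response, had 0.86. The list of genes known to differ between inbred strains by haplotype, copy number or null allele had a median of -0.10 over 17 genes; its 2-fold members were H2-Ea, H2-Eb1, Apoa2 and Psmb6.

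Transcripts of the male tract were present in both pools and differed by tissue. Of 21 measured testis and germ cell markers 19 were lower in DU6, 8 of them by at least 2-fold (median -0.59, after lowess -0.62). Of the 21, 12 were above the floor in both lines (median -1.004). For the others, above it in 1 line only, the direction was fixed by the rule for being measured. Prm2, a protamine of the sperm nucleus, had 7051 in DU6 and 18639.6 in DBA (2.64-fold lower), and Prm1 8576 in DU6 and 19113 in DBA (2.23-fold). Ldhc, the lactate dehydrogenase of sperm, was 2.94-fold lower, Dnajb3, a chaperone of the testis, 3.58-fold (its second probe set gave -2.11 on the log2 scale), Tuba3a, a testis tubulin, 2.64-fold, and Spa17, a sperm surface protein, at least 2.30-fold. DUKs had the highest signal of the 4 lines for all of these, for example 23076 for Ldhc. Summed over the list, chip A signals came to 41838 for DU6 and 83650 for DBA, and chip B signals to 36923 for DU6 and 69293 for DBA.

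With each gene read by its brightest probe set, Svs5 and Svs4, which encode seminal vesicle secretions, had the largest differences of the genes named here. Svs5 had -575 in DU6 and 43837 in DBA, at least 19.4-fold lower, Svs4 -36 in DU6 and 42807 in DBA, at least 18.96-fold, and Svs2 -555 in DU6 and 19922 in DBA, at least 8.82-fold. All 3 were under the floor in DU6i and DUKs, so that DBA was the only pool above the floor for them. They encode proteins of the copulatory plug and are known for being made in the seminal vesicle at very high levels. Svs6 was near the floor (-129.5 in DU6, 1042 in DBA). Ceacam10, a further seminal vesicle gene, ran the other way, with 7370.3 in DU6 and 4642 in DBA. Whether DBA's pool held tissue of the gland was not tested.

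The promoters of the top pair of these genes, which lie in a cluster on mouse chromosome 2, are shown because both genes were under the floor in DU6 and bright in DBA. The capitals mark ATATATAAA, a TATA-like stretch, searched on both strands, which 150 of the 32851 promoters (0.457%) hold; it was chosen after the sequences were seen.
Svs5, chr2:164332515-164332814, plus strand: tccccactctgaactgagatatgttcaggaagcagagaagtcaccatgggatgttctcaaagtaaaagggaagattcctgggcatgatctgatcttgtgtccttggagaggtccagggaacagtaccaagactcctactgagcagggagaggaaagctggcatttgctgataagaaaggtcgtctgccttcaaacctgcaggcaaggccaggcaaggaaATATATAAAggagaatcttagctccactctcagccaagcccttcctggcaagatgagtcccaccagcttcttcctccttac
Svs4, chr2:164278258-164278557, minus strand: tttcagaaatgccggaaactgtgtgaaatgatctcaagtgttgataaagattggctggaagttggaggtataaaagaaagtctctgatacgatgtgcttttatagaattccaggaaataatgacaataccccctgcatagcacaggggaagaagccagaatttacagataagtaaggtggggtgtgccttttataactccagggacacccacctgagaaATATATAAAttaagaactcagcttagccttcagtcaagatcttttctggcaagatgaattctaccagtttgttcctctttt
It began 31 bases before the start in both, and the promoter of Svs2 does not hold these letters.

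Epididymis markers did not follow 1 direction (9 measured, median -0.26). Gpx5, the glutathione peroxidase of the epididymis, had 49126 in DU6 and 20753 in DBA (2.37-fold higher, log2 ratio 0.84 after lowess), beside a signal below 0 in DU6i and 52044 in DUKs. Ptgds, a prostaglandin synthase, was 2.12-fold higher. Wfdc2 (2.52-fold), the kinase gene Ros1 (at least 2.53-fold, with log2 ratios of -0.63 and -0.18 by other probe sets) and the defensin Defb1 (at least 2.07-fold), all made by epithelia, were lower. Adam7, an epididymal gene bright in both pools, had 19574 in DU6 and 21665 in DBA.

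Epithelial and mesothelial markers lay lower in DU6 in 14 of 18 measured genes, 5 of them by at least 2-fold, with a median of -0.65 and -0.72 after lowess. Epcam, an adhesion molecule of epithelia, had 1187 in DU6 and 3425 in DBA (2.88-fold lower), and Cdh1, the E-cadherin gene, had 6018 in DU6 and 12772 in DBA (2.12-fold). The transcription factor gene Elf3 was at least 2.92-fold lower, the desmosome gene Dsg2 2.18-fold and the tight-junction gene Ocln at least 2.01-fold. Keratins Krt18 (-0.75), Krt7 (-0.68) and Krt19 (-0.65) were lower as well. Higher were Krt17 (at least 1.59-fold), the tight-junction genes Cldn3 (0.68) and Tjp1 (0.37), and Msln. The mesothelial genes proper differed less, with Wt1 at -0.48, Upk3b at -0.25 and Msln at least 1.49-fold higher. The germ cell and seminal vesicle lists were low in the same pair; how much the tissues of the male tract gave to the epithelial values was not tested.

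Matrix genes leaned high by the plain ratio and less so after lowess. Of 45 extracellular matrix genes 33 were higher, 4 of them by at least 2-fold, and 12 lower, none by 2-fold (median 0.34, after lowess 0.15). The 2-fold members were Nid2, a basement membrane nidogen (2.12-fold), Tnxb, the tenascin of connective tissue (2.03-fold, log2 ratio 0.80 on the other chip), Ecm1 (2.05-fold) and Thbs2, a thrombospondin (at least 2.07-fold). Col1a1, the main fibrillar collagen, had 0.75 on chip B (after lowess 0.16) and -0.41 on chip A. The dimmer matrix genes Lox (0.77) and Loxl1 (0.78), which cross-link collagen and elastin, and Col5a1 (0.86) stayed near these values after lowess (0.70, 0.70 and 0.77). Metalloproteinases and inhibitors had a median of 0.52, with Adam8 (at least 2.90-fold), Mmp12, the macrophage elastase (at least 2.61-fold), and Htra3 (2.31-fold) higher. Mmp7, the matrilysin of epithelia, was 2.08-fold lower. Timp1, the inhibitor of these enzymes, had 8033 in DU6 and 4269.8 in DBA (0.91), beside 2527 in DU6i and 2838 in DUKs.

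Preadipocyte and stromal markers (median 0.37, with -0.40 for 8 genes on chip A and 0.45 for 9 on chip B) did not share 1 direction. Sfrp2, a secreted Wnt modulator of stromal cells, was 2.69-fold higher, and Thy1 (0.95), Clec3b (0.96) and S100a4 (0.97) were close to 2-fold. Pdgfra, the receptor that marks adipocyte progenitors, was 2.09-fold lower (2660.4 in DU6, 5568 in DBA), and Cd34, a surface marker of progenitors and endothelium, at least 2.41-fold lower. Dlk1, the preadipocyte factor Pref-1, was above the floor in DBA only (at least 1.60-fold). Endothelial markers (median 0.26, 10 of 13 higher) held Tek, the angiopoietin receptor, 2.13-fold higher. Smooth muscle genes (median -0.27) were lower for Actg2 (-0.76), Myh11 (-0.63) and Tagln (-0.61), while Acta2 on chip B was 2.001-fold higher (after lowess 0.27). Skeletal muscle markers gave 9 measured genes of 27, with Myl1 at 2.23-fold higher. Nervous and glial markers were few (5 measured, median 0.36), led by Ncam1 at -0.69 and Sox10, at least 1.49-fold higher.

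Lists of basic metabolism had medians close to that of all genes, but some of these joined chips that pointed opposite ways. Fatty acid and triglyceride synthesis had medians of -0.21 for 10 genes on chip A and 0.88 for 4 on chip B. Glycolysis had -0.43 for 7 genes on chip A and 0.45 for 10 on chip B. Fatty acid oxidation had a median of 0.20 with 0 of 18 genes at 2-fold, led by Eci1 (0.67), Etfb (0.57) and Decr1 (0.48). The citric acid cycle had -0.06, led by Idh3a (0.90) and Pdha1 (-0.80). The respiratory chain had -0.12 over 37 genes, with Ndufa1, a subunit of complex I, 2.27-fold higher on chip B (after lowess 0.61). Fatty acid and triglyceride synthesis had 0.08, with Me1, the malic enzyme, at 0.92 and 0.84 after lowess, and lipolysis and lipid storage 0.19, with Plin2, a lipid droplet protein, at 0.52 (after lowess 0.77). In the glycolysis list (0.08) Fbp1 (at least 2.71-fold) and G6pc (at least 2.02-fold), both enzymes of gluconeogenesis known from liver and kidney, were lower. Aldoa, the muscle-type aldolase of glycolysis, was 2.14-fold higher by its brighter chip B probe set (log2 ratio 0.45 after lowess), while the chip A one gave a log2 ratio of -0.55. Steroid and glucocorticoid metabolism had -0.02 and cholesterol synthesis 0.03, with Hsd11b1, which makes active glucocorticoid in fat, at -0.29 (after lowess -0.93) and Fdft1 at -0.84.

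Ribosomal protein genes showed the chip pattern, with medians of -0.33 for 25 genes on chip A and 0.61 for 10 on chip B, and -0.04 over both after lowess. Rpl6 (2.13-fold higher, log2 ratio 0.64 after lowess and 0.51 by a second probe set) and Rpl41 (2.201-fold lower) were the 2-fold members. Proteasome genes had a median of -0.13, and Psmb6, given above, was the 1 member of 31 at 2-fold. Heat shock proteins and chaperones (-0.16, 22 of 38 lower) held Hspe1, the small mitochondrial chaperonin, 2.94-fold higher, and Hspa1a, the inducible Hsp70, 2.73-fold lower (1068 in DU6, 2912 in DBA), with Cct3 2.14-fold (-0.31 on the log2 scale by its second probe set) and Hspa4l 2.03-fold lower. Hspa4l is also a germ cell marker here. Antioxidant genes had -0.05, with Hmox1 and Gsto1 higher, as given above, Mgst3 2.76-fold and Gstt2 at least 2.14-fold lower, and the superoxide dismutase Sod1 at 12804 in DU6 and 14293 in DBA.

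Cell cycle genes leaned low (median -0.31, 18 of 27 lower). Plk1, a kinase of mitosis, had 120.2 in DU6 and 4329 in DBA (at least 4.23-fold lower), Mcm7, of the replicative helicase, was 2.15-fold lower, and Ccnd3, a cyclin of G1, 2.55-fold, though a second probe set of Ccnd3 gave -0.12. Mki67 had -0.56 and Pcna -0.51. In the germ cell list 19 of 21 genes were lower too, with the limit given there for genes above the floor in 1 line only. Dividing germ cells use several of the cell cycle genes, and the part of germ cells here was not tested. Iron handling genes had -0.03 over 13 genes, with Hmox1 and Hfe higher and Hpx lower at 2-fold. Immediate early genes had a median of 0.02, with Egr2 2.65-fold lower (6124 in DU6, 16202 in DBA) and Egr1 at 0.03. Circadian and thermogenic genes gave 4 and 3 measured genes, with medians of -0.23 and -0.19. Cox8b, a cytochrome oxidase subunit of brown fat, had 3667 in DU6 and 4932 in DBA.

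**Figure D5:**
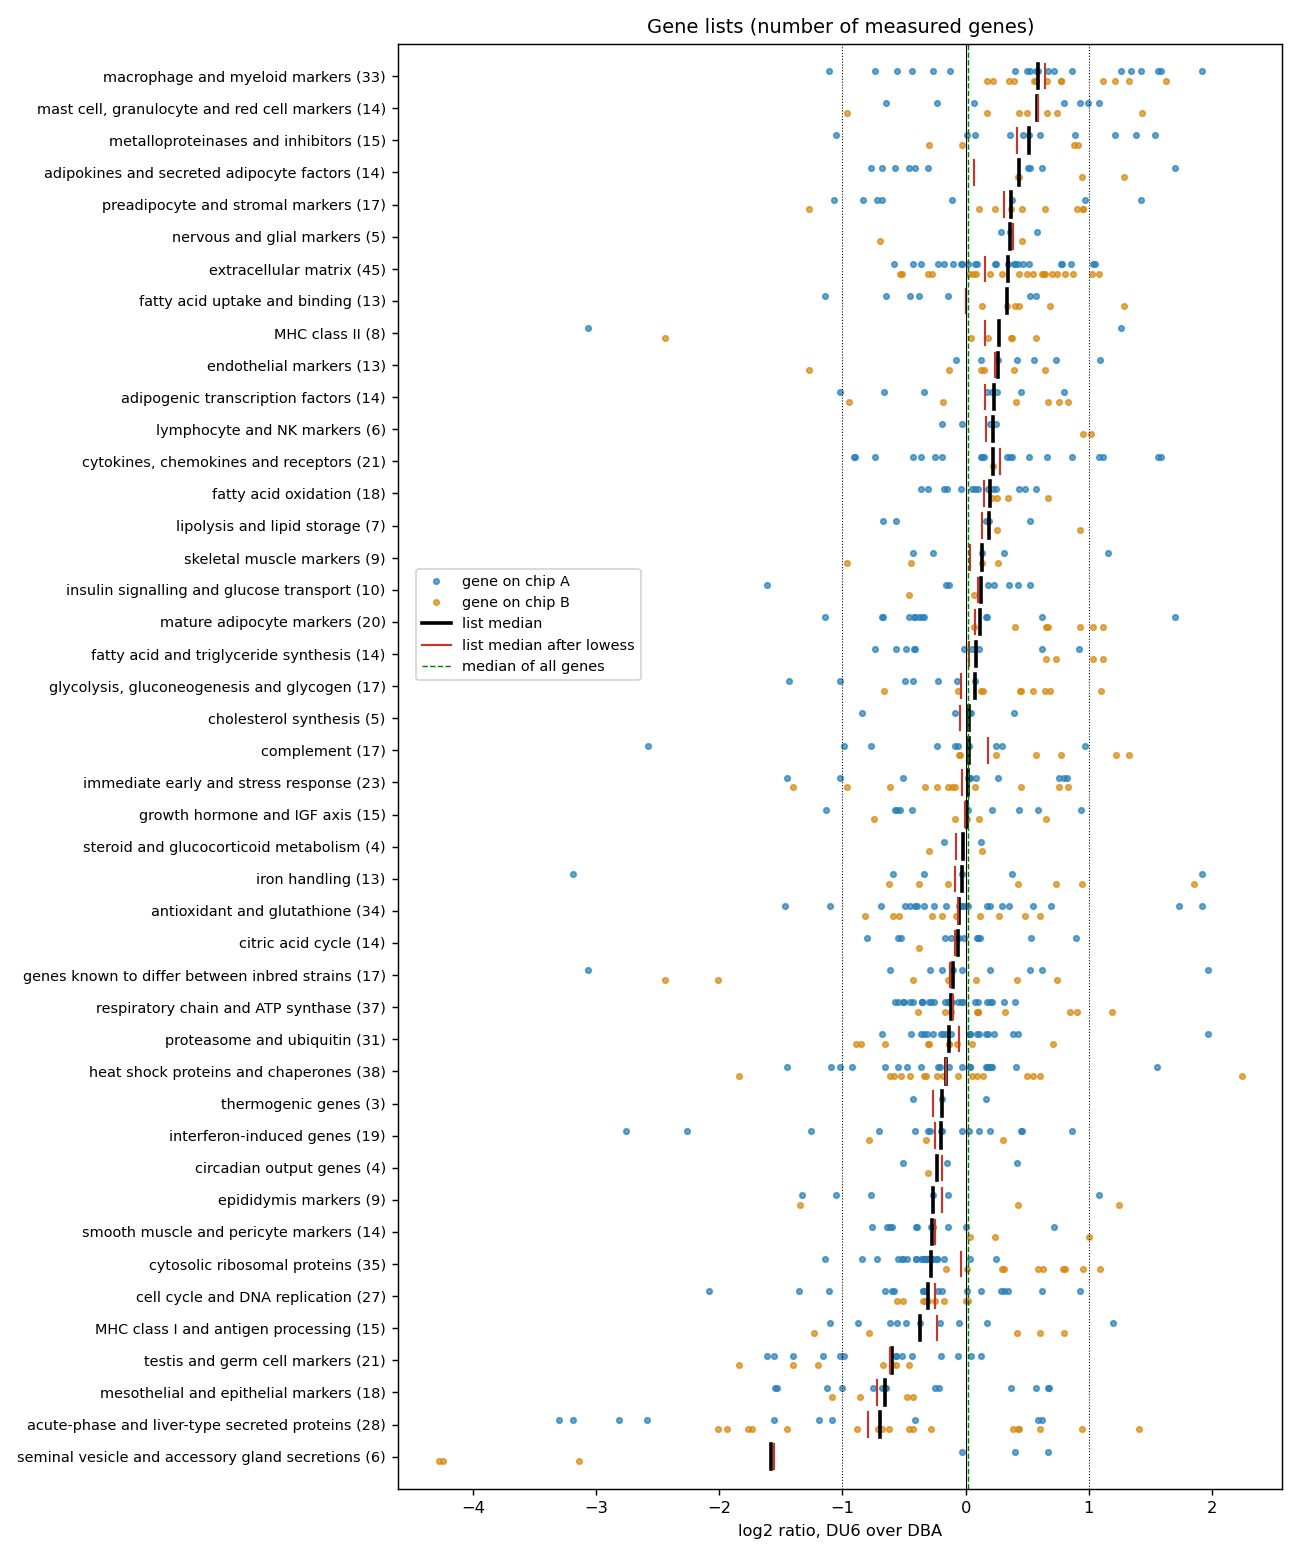
Log2 ratio of DU6 over DBA (horizontal axis) of each measured gene by list, coloured by chip, with the list median in black and the median after lowess in red; dotted lines mark 2-fold and the dashed line the median of all genes (0.02). Macrophage and myeloid markers lie at the top (0.59) and the acute-phase and liver-type list near the foot (-0.69); in the adipocyte and ribosomal lists the genes of chip B lie right of those of chip A.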

How the data were processed

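Each pool was hybridised once to chip A and once to chip B. The deposited values are intensities, MAS signals that can be negative, for which the labels' protocols name Microarray Suite 4.0.1 and Data Mining Tool 1.2; the authors had scaled each array, and trimmed mean signals were 2502 to 2505 on every array of the series, so no further scaling was applied. Signals at or under a floor, the 95th percentile of the sizes of negative signals on the arrays of a chip, were set to the floor, and log2 ratios of DU6 over DBA were taken within each chip. Lowess used a fraction of 0.3 and 3 iterations (Python 3.11.15, statsmodels 0.14.6, numpy 2.4.6, pandas 2.3.3). Gene symbols came from the platform annotation; probe sets with several symbols or none (139 and 1295 of the 5491 measured) were not named. With 1 pool per line no test could be made, and calls are by size (2-fold); the calculation was tested on simulated data.

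Genes named were the 12 highest and 12 lowest above the floor in both lines, the 6 largest bounds in each direction, list members at 2-fold or the 3 most extreme of a list, and a set of sentinel genes; further list members, such as Alb, Adgre1, Mki67 or the keratins, were chosen after their values were seen. The members and the 44 gene lists were chosen with earlier results of these data known. Probe sets named _f_ by the manufacturer match families of sequences, and their gene names are uncertain. Among the genes read by them were H2-Aa, some class I genes, Mup5, Hba-a1, Apoe, Aldoa, Lgals3, Cryab, Pfn1, Apoa2 and Ambp. Further ones were Plk1, Prm1, Prm2, Tuba3a, Hspe1, Psmb9, Igf2, Saa2 and Wfdc2, and this is not a full list. Alternatives were quantile normalisation, median centring, lowess, other floors, log2(signal + floor), single chips, other probe sets of a gene and a 3-fold limit.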

Additional observations from a re-analysis of the deposited data

How the results depend on the processing

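Each line had 1 pool and 1 array per chip, so that the spread between animals, pools and repeat hybridisations of a chip is unknown. Pairs of probe sets gave an SD of 0.37 for a single log2 ratio. Pairs across chips, which also hold differences between hybridisations, gave 0.48. No paired analysis was possible because each line has 1 pool. A floor was needed for dim genes, and a bound moves with it. Of 208 probe sets at least 2-fold higher, 38 were at least 3-fold; the count was 102 on chip A, 106 on chip B, 103 with the floor doubled, 350 with it halved, 127 on the log2(signal + floor) scale and 136 without signals over 10000. Of 229 lower, 61 were at least 3-fold; the count was 134 where both arrays had to be above the floor, 130 on chip A, 99 on chip B, 97 with the floor doubled, 436 with it halved and 151 on the log2(signal + floor) scale. Another probe set turned the direction of Aldoa (-0.55), Apoe (-0.66) and Pdxdc1 (-3.42).

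Medians that moved are given by list; for single chips, a gene was read by its brightest probe set on that chip, so that these medians differ from the split by chip given with the results. For class I genes the median was -0.17 on chip B, -0.10 with the floor doubled, -0.18 with it halved, -0.23 after lowess and -0.56 without bright probe sets. For the liver-type list it was -0.0147 above the floor in both lines, -1.55 on chip A, -0.54 on chip B, -0.60 and -1.11 with the floor doubled and halved, -0.85 on the log2(signal + floor) scale, -0.79 after lowess and -0.79 as the median of probe sets, -0.93 after quantile normalisation and -1.08 without bright probe sets. Adipokines turned to -0.41 on chip A and had 0.69 on chip B, 0.0675 after lowess, 0.13 as the median of probe sets and 0.13 after quantile normalisation. Cell cycle genes had -0.20 on the log2(signal + floor) scale and -0.16 after quantile normalisation. Extracellular matrix genes had 0.46 on chip B, 0.42 with the floor halved, 0.15 after lowess and 0.22 after quantile normalisation. Fatty acid uptake turned to -0.38 on chip A and -0.14 without bright probe sets, with 0.0071 after lowess and 0.055 after quantile normalisation. Mast cell, granulocyte and red cell genes had 0.77 above the floor in both lines, 0.86 on chip A, 0.24 and 0.43 with the floor doubled and halved and 0.42 on the log2(signal + floor) scale. Epithelial and mesothelial genes had -0.53 on the log2(signal + floor) scale. Metalloproteinases had 0.31 with the floor halved, 0.35 on the log2(signal + floor) scale and 0.74 without bright probe sets. Stromal markers turned to -0.54 on chip A and -0.11 without bright probe sets, with 0.55 and 0.20 with the floor doubled and halved and 0.24 as the median of probe sets. Seminal vesicle genes turned to 0.40 on chip A and 0.40 without bright probe sets, with -4.24 on chip B, -2.69 and -1.03 with the floor doubled and halved, -2.15 on the log2(signal + floor) scale and -3.12 after quantile normalisation. Testis markers had -1.004 above the floor in both lines, -0.98 with the floor halved and -0.70 on the log2(signal + floor) scale. Beyond the alternatives' own construction the cause was not tested. The macrophage median kept its sign under every alternative run and ranged between 0.56 and 0.67. The seminal vesicle list had too few genes above the floor in both lines for a value.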

Other observations

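Some of the widest differences lay in probe sets without a gene symbol. Those given here are all on chip B, which holds 4567 such probe sets, beside 827 on chip A. The widest of them read -234 in DU6 and 39823 in DBA, at least 17.6-fold lower, beside 942 in DU6i and -470 in DUKs, and so was bright in DBA alone. Another had 3449 in DU6 and 21838 in DBA (6.33-fold lower), beside 20538 in DU6i and 5995 in DUKs, which placed the DU6 pool nearest to DUKs. On the high side, x51834_f_at had 18003 in DU6 and 939 in DBA (at least 7.97-fold), and a further one had 12475 in DU6 and 708 in DBA (at least 5.52-fold). Both were under the floor in DU6i and DUKs, so that DU6 was the only line of the 4 above it.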
